A study of Homo sapiens with 12 samples.

Results

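Voltage-gated calcium, sodium and potassium channels, together with the other potassium channels, set the membrane potential of a beta cell and shape its action potentials. In the textbook account, closure of ATP-sensitive potassium channels depolarises the cell, sodium and calcium channels open, calcium entry triggers insulin release, and delayed rectifier and calcium-activated potassium channels end the spike. Each channel is built around pore subunits, with accessory subunits that set its surface level and gating. The genes described here were the rows of the expression table whose symbols name a KCN potassium channel gene, a CACNA, CACNB or CACNG calcium channel gene or an SCN sodium channel gene, with KCNJ11 left out. There were 134 such genes among 35337 rows.

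RNA was measured by CEL-seq2, which reads the 3′ end of transcripts, in 12 samples of EndoC-βH3, a human beta-like cell line derived from fetal pancreas and immortalised by hTERT and SV40 large T-antigen. The cells carry a tamoxifen-activated Cre recombinase, and 4-hydroxytamoxifen for 3 weeks removes the immortalising transgenes, after which the cells become senescent. The 6 senescent samples had this treatment, and the 6 non-senescent samples were control cells in which the transgenes were kept. The genotype of both groups is labelled WT. Both came from this 1 line, so agent, transgene loss and senescence cannot be told apart in this design. The sample names carry a letter that was taken as a batch, with 2 senescent and 2 non-senescent samples in A, and 4 and 4 in B. Nothing in the labels says that samples came from separate cultures, so p-values measure only the spread between these samples.

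Values are normalised read counts, which are reads divided by 1 size factor per sample. Libraries held from 4672924 to 17106776 reads, the deeper ones in batch A. The summed channel genes took 2357 to 2391 ppm of reads in the non-senescent samples of batch A, 1676 to 1857 ppm in those of batch B, and 1883 to 1977 ppm in all senescent samples. The labelled cell type was checked against 7 beta-cell markers, all present, whose summed level was 18534 to 43576 without and 60244 to 202589 with senescence. INS made up most of that sum, at 11021 to 34331 and 49685 to 185508. NKX6-1 (329 to 603 and 333 to 384) and SLC30A8 (2348 to 4555 and 2560 to 2957) did not follow it. The summed level of 4 alpha-cell markers was 49236 to 124090 and 154985 to 244140, mostly TTR, while GCG itself was at 2463 to 5461 and 507 to 2985. The 3 delta-cell markers summed to 159957 to 287950 and 115196 to 142740, nearly all SST. Acinar markers summed to 34.2 to 63.4 and 144 to 255, nearly all CPA1, and duct markers to 246 to 379 and 80.4 to 162, nearly all KRT19. Of the neuronal and glial markers, SNAP25 was at 1091 to 1623 and 1580 to 2256, and RBFOX3 at 228 to 348 and 161 to 212. PDGFRB (mesenchyme), VWF (endothelium) and S100B (glia) were at 0 in every library. Other markers of the mesenchyme and endothelium lists had reads. COL1A1 was at 6.36 to 24.8 and 8.08 to 19.5, COL3A1 at 0 to 97.9 and 1.21 to 27.5, and PECAM1 at 3.97 to 16.2 and 2.49 to 14.5. The part of these marker shifts in the channel values was not tested. In bulk RNA, fewer cells of a type and less RNA per cell cannot be told apart.

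Of the 134 genes, 73 averaged at least 5 normalised reads over the 12 samples and were tested, 48 had reads but fell below that level, and 13 had no read in any library. A gene was called when the adjusted p of limma, over all 13847 genes tested, was under 0.1 and the fold change was over 1.5. In senescent cells 13 channel genes (17.8% of those tested) were higher, against a background of 11.6% of all genes tested, and 9 (12.3%) were lower, against 11.8%. The counts by role given below rest on 1 to 10 tested genes per role and are to be read beside these shares. The median log2 fold change of the 73 genes was -0.03, and that of all genes tested 0.01. The other 51 were not called, 8 of them with an adjusted p under 0.1 but a smaller fold. When libraries were scaled to the same total, which moved the median of all genes to -0.09, 10 channel genes were higher and 12 lower. Of all 13845 genes tested at that scaling, 1225 were called higher and 2092 lower. All 22 called genes had the same sign in batch A and batch B, and in 14 of them the groups did not overlap within either batch. They were called from these same samples, so the selection itself favoured such agreement. No matching share was computed over all genes called. Among all 73 genes, 16 (21.9%) had groups that were apart in both batches and in 1 direction, near the background of 23.8%.

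**Figure D1:**
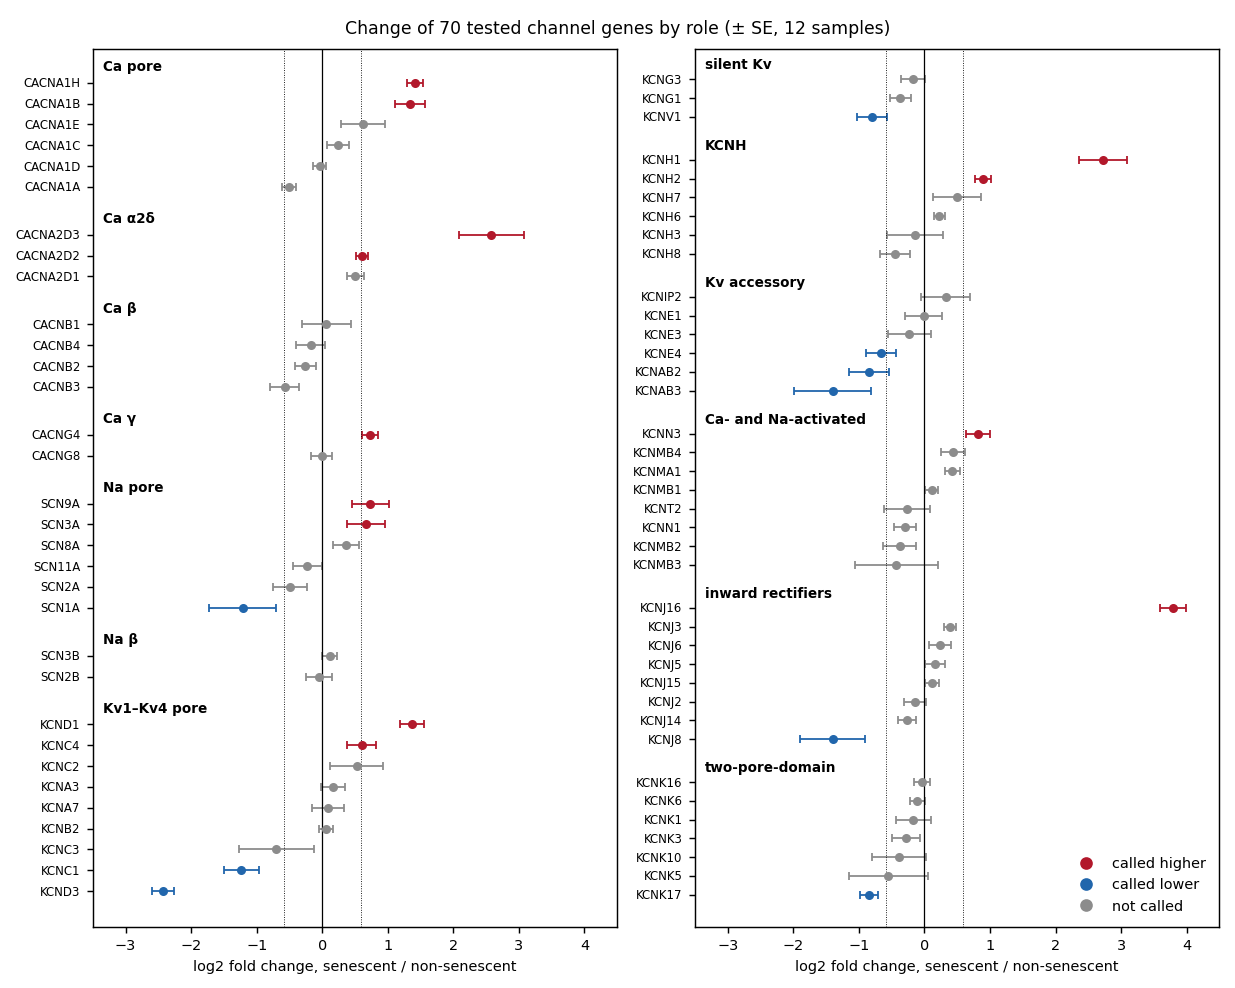
Log2 fold change (senescent over non-senescent, x axis) of 70 of the 73 tested channel genes, grouped by role on the y axis. Points are estimates from 12 samples with batch in the model, bars are ± SE, dotted lines mark a fold of 1.5, and red and blue mark the 13 genes called higher and the 9 called lower.

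The pore subunits of voltage-gated calcium channels changed in composition, with 2 of 6 tested called higher (background 11.6%) and none lower. CACNA1A, the P/Q-type pore, was the highest of them in every sample. The T-type pore CACNA1H, which opens at low voltage (GRCh38, chromosome 16, 1153106 to 1221771), rose. Its level was 137 to 441 (median 367) in non-senescent samples and 550 to 1003 (median 812) in senescent samples, with no overlap. The change was 1.42 ± 0.12 (log2, SE; 2.67-fold, adjusted p = 1.02e-07). The N-type pore CACNA1B (chromosome 9, 137877782 to 138124624) also rose, from 9.94 to 46.7 (median 19.8) to 47.3 to 68.2 (median 58.9), which left a narrow gap between the groups. Its change was 1.34 ± 0.23 (adjusted p = 0.000227). The 3′ end of CACNA1H lies over exons of TPSG1 on the other strand.

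CACNA1A fell within both batches but by different amounts. It stood at 3564 to 3923 in non-senescent and 1731 to 1943 in senescent samples of batch A, and at 1875 to 1923 and 1432 to 1762 in batch B. The pooled change of -0.51 ± 0.11 had an adjusted p of 0.00124 but was under the fold limit. The L-type pores, which carry the main calcium current coupled to insulin release, were not called. CACNA1D was at 211 to 852 (median 697) and 249 to 793 (median 626), a difference of -0.04 with an interval of ± 2 SE from -0.24 to 0.15, and its 3′ end lies over CHDH on the other strand. CACNA1C was at 104 to 393 (median 126) and 135 to 282 (median 202). The R-type pore CACNA1E was low, at 1.51 to 32.6 and 5.72 to 31.4 (log2 difference 0.62 ± 0.34, adjusted p = 0.165), and passed the call without non-senescent replicate B3 (0.78).

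As a share of the reads of all calcium channel pore genes, CACNA1A was 66.9% ± 11.8 (SD, n = 6) in non-senescent and 51.3% ± 7.93 in senescent samples, while CACNA1H was 9.41% ± 4.85 and 23.7% ± 4.71. These SDs pool the batches. The share of CACNA1A fell from 81.64% to 82.04% to 59.26% to 61.45% in batch A and from 56.9% to 63.09% to 42.74% to 52.85% in batch B. The share of CACNA1D moved in opposite directions in the batches, from 4.87% to 5.34% to 8.53% to 8.94% in batch A and from 21.7% to 25.4% to 18.6% to 21.4% in batch B. These shares are of 3′ end reads and were not divided by length. The summed pore genes were lower in senescent samples of batch A, at 4345 to 4805 and 2920 to 3163 without overlap, and overlapped in batch B, at 3048 to 3360 and 3313 to 3714. The share of CACNA1H was 3.16% to 13.4% in non-senescent and 17.4% to 29.5% in senescent samples, without overlap.

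**Figure D2:**
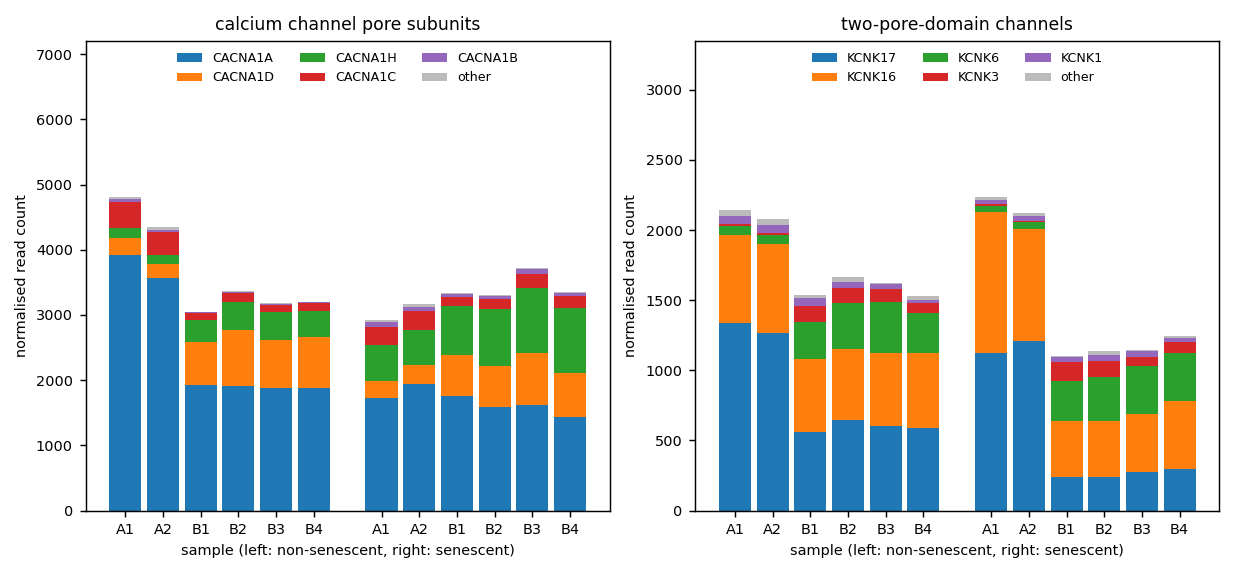
Summed normalised read counts (y axis) of calcium channel pore genes (left panel) and two-pore-domain potassium channel genes (right panel) in each sample, with the 5 highest genes as coloured segments and all others in grey; within each panel the 6 bars on the left are non-senescent and the 6 on the right senescent. The CACNA1H segment is larger in every senescent sample (550 to 1003) than in any non-senescent one (137 to 441), and the KCNK17 segment is smallest in senescent samples of batch B (240 to 294).

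Among the alpha2delta subunits, which bring calcium channels to the surface, 2 of 3 tested were called higher (background 11.6%). CACNA2D1 was at 1059 to 4249 (median 1239) and 2012 to 3994 (median 2146). It had the highest mean level of all channel genes in senescent samples, whereas CACNA1A had the highest pooled mean in non-senescent samples (2514, against 2162). That non-senescent order held in batch B only, and in batch A CACNA2D1 (4019 to 4249) was above CACNA1A (3564 to 3923). The pooled change of CACNA2D1, 0.51 ± 0.13 (adjusted p = 0.00448), was under the fold limit, and it was called without non-senescent replicate A2 (0.60) or senescent replicate A1 (0.61). CACNA2D2 was at 347 to 487 (median 407) and 452 to 766 (median 663), rising by 0.60 ± 0.09 (adjusted p = 5.72e-05), just past the fold limit. It dropped under that limit without non-senescent replicate B3 (0.53), senescent replicate B2 (0.57) or senescent replicate B4 (0.58), and with libraries scaled to the same total. CACNA2D3 was sparse, with 0 to 5 reads per non-senescent library and 6 to 24 per senescent library, and was called higher (adjusted p = 0.000548).

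None of the 4 beta subunits, the cytoplasmic partners of the pore, was called. CACNB2 was the highest, at 88.2 to 195 (median 104) and 72.2 to 121 (median 103). CACNB3 was at 32.8 to 61.2 and 18.7 to 45.3, and its change of -0.58 ± 0.22 (adjusted p = 0.0525) was close to the fold limit. It was called lower without any 1 of 6 libraries: non-senescent A1 (-0.73), B1 (-0.59) or B2 (-0.62), or senescent A1 (-0.67), B1 (-0.63) or B3 (-0.61). Of 8 gamma subunits, 2 were tested. CACNG4 rose from 83.4 to 164 (median 147) to 159 to 292 (median 201), by 0.73 ± 0.12 (adjusted p = 0.000111), with a slight overlap of the groups, and CACNG8 was not called.

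Sodium channel genes were at low levels and their calls were fragile. The pore genes SCN9A and SCN3A were called higher and SCN1A lower among 6 tested, and the groups overlapped in all 3. SCN9A, a pore best known from sensory neurons, was at 12.4 to 25.6 (median 18) and 16.2 to 50.4 (median 27.8), a change of 0.73 ± 0.29 (adjusted p = 0.0532). The call was lost without non-senescent B2 (0.62) or B4 (0.62) or senescent B2 (0.60) or B4 (0.61). SCN3A was at 8.26 to 28.6 (median 16.1) and 16.2 to 33.6 (median 25.5), a change of 0.67 ± 0.29 (adjusted p = 0.0775). Its call was lost without any 1 of 8 libraries, non-senescent A2, B2, B3 or B4 or senescent A2, B1, B2 or B3 (0.52 to 0.69), and under both count models.

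SCN1A had 1 to 14 reads per non-senescent library and 1 to 13 per senescent library (log2 change -1.22 ± 0.51, adjusted p = 0.0715). Its call was lost without non-senescent A2 or B1 or senescent A1, B1, B2 or B4 (-1.18 to -1.09), and its 3′ end is covered by the antisense gene SCN1A-AS1. SCN8A was at 28.6 to 80.4 (median 57.1) and 54.8 to 79.1 (median 68.4), and did not pass the test. SCN2A was at 8.34 to 64.6 (median 39.4) and 8.46 to 42.4 (median 24.2), a difference of -0.49 ± 0.26 that was called lower without non-senescent A1 (-0.61) or B2 (-0.63). SCN1A, SCN2A, SCN3A and SCN9A are neighbours on chromosome 2.

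The sodium channel beta subunits, which modulate gating and adhesion, held more reads than the pore genes. SCN3B supplied 86.3% ± 3.01 (SD, n = 6) of them in non-senescent and 88.3% ± 2.78 in senescent samples. Its level was 340 to 644 (median 414) and 393 to 567 (median 493), a difference of 0.11 ± 0.11 that did not pass the test.

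The Kv4 pores, which carry fast transient A-type current, moved in opposite directions. KCND3 (chromosome 1, 111770662 to 111989668) had the largest fall of all channel genes, from 325 to 493 (median 398) to 52.3 to 110 (median 76.0). The groups were far apart in both batches, and the change was -2.43 ± 0.17 (5.39-fold lower, adjusted p = 5.07e-09). KCND1 (chromosome X, 48961378 to 48971844) rose from 20.5 to 39.9 (median 31.4) to 67.3 to 93.3 (median 80.2). Its change was 1.37 ± 0.18 (2.58-fold, adjusted p = 1.31e-05), nearly equal in batch A (1.40) and batch B (1.35). KCND3 supplied 43.7% ± 7.47 (SD, n = 6) of the reads of Kv1 to Kv4 pore genes in non-senescent samples and 12.1% ± 4.86 in senescent ones, while KCND1 supplied 3.39% ± 1.04 and 12.5% ± 4.08. In senescent samples of batch A the share of KCND3 was 16.55% to 18.56% and that of KCND1 15.98% to 19.21%. In those of batch B the shares were 6.21% to 12.66% and 9.215% to 10.71%, so the 2 genes overlapped within each batch. The summed Kv1 to Kv4 pore genes were at 625 to 1189 and 431 to 885, overlapping when pooled but lower in senescent samples within each batch. They were at 625 to 651 and 431 to 435 in batch A, and at 1065 to 1189 and 683 to 885 in batch B.

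The 250 bases before the annotated start of each of these 2 genes are given because the pair moved in opposite directions. The sequences are from RefSeq (GRCh38.p14), 5′ to 3′ on the minus strand, the gene's own strand, with CG dinucleotides in capitals. The window of KCND1 is chrX:48971845-48972094 and that of KCND3, the outer of 2 listed, is chr1:111989669-111989918.
KCND1: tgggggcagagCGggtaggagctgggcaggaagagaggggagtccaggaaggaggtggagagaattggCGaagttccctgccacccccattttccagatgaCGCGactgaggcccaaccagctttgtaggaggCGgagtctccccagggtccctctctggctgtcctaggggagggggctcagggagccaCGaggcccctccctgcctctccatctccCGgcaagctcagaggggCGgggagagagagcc
KCND3: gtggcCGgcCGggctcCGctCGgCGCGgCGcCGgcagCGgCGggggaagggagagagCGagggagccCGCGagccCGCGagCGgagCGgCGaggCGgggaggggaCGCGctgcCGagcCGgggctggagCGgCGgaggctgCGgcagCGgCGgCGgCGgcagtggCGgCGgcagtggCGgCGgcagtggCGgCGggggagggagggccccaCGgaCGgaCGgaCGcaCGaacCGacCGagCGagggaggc
The KCND1 window held 8 CG dinucleotides and 1 GC box (GGGCGG on either strand), and the KCND3 window held 44 and none. The other KCND3 window, not printed, held 22 CG dinucleotides and no GC box. GC boxes were in 42.6% of all 35116 windows and in 49.7% of the 149 windows of channel genes. Windows were found for 97 of the 134 channel genes, and their median CG count per gene was 16, against 11 over all 27305 genes. The median was 21.3 (range 4 to 39) over the 10 genes called higher with a window and 15.1 (range 1.5 to 33) over the 6 called lower. It was 17 over the 40 tested and not called and 15 over the 41 below the filter or not detected. These are descriptions, and 3′ end reads do not tell which start was used.

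Among the delayed rectifier and other Kv pores, KCNC1 fell and KCNC4 rose. KCNC1, a fast Kv3 pore, was at 28.3 to 46.0 (median 38.8) and 7.27 to 29.9 (median 16.5), a change of -1.23 ± 0.27 (adjusted p = 0.00138), with 1 senescent sample inside the non-senescent range. KCNC4 was at 21.1 to 39.5 (median 28.2) and 28.6 to 53.5 (median 47.2), a change of 0.60 ± 0.22 (adjusted p = 0.0361). That call was lost without any 1 of 7 libraries, non-senescent A2, B2 or B4 or senescent A2, B1, B2 or B3 (0.50 to 0.58), and with libraries scaled to the same total.

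KCNB2, a delayed rectifier pore, was not called. It was at 112 to 249 (median 222) and 97.2 to 286 (median 238), with a difference of 0.06 ± 0.10 whose sign turned with libraries scaled to the same total.

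Of the silent Kv subunits, which modify other Kv pores without forming a channel alone, 3 were tested. KCNV1 fell from 15.0 to 23.6 (median 19.9) to 7.63 to 13.7 (median 11.4), a change of -0.80 ± 0.23 (adjusted p = 0.012) with no overlap, at 9 to 29 reads per library. KCNG3 was not called (-0.17 ± 0.18), nor was KCNG1 (-0.37 ± 0.16, adjusted p = 0.0792). KCNQ1, a pore of slow potassium current, fell below the filter, with 0 to 3 reads per non-senescent and 5 to 12 per senescent library, and it overlaps the antisense transcript KCNQ1OT1.

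Of the KCNH pores, 2 of 6 tested were called higher (background 11.6%) and none lower. KCNH1, an ether-a-go-go pore (chromosome 1, 210676823 to 211134165), was at 1.24 to 12.7 (median 5.64) in non-senescent and 18.7 to 51.9 (median 46.9) in senescent samples. The groups did not overlap, and the change was 2.72 ± 0.36 (6.59-fold, adjusted p = 1.48e-05), from 1 to 21 reads per non-senescent library. KCNH2, the hERG pore, whose current dampens firing, was at 118 to 431 (median 172) and 272 to 616 (median 328). Both groups were higher in batch A than in batch B, and values overlapped when pooled but not within either batch. The change was 0.89 ± 0.12 (1.85-fold, adjusted p = 1.88e-05). KCNH6, a related pore, was at 194 to 300 (median 279) and 212 to 372 (median 330), and its change of 0.23 ± 0.08 (adjusted p = 0.0322) was under the fold limit.

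Of 6 tested Kv accessory subunits, 3 were called lower (background 11.8% of all genes tested) and none higher. In none of the 6 were the groups apart in both batches. KCNE4, an inhibitory single-span subunit, supplied 51.8% ± 3.98 of the reads of this group in non-senescent and 47.7% ± 11.9 in senescent samples (SD, n = 6). It was at 67.8 to 178 (median 112) and 42.6 to 120 (median 61.1), a change of -0.66 ± 0.23 (adjusted p = 0.0279), with overlapping groups. Its call was lost without non-senescent A2 (-0.56), non-senescent B3 (-0.56) or senescent B2 (-0.52). KCNAB3, a cytoplasmic beta subunit, was at 16.6 to 39.9 (median 25.5) and 0 to 23.0 (median 13.1), a change of -1.40 ± 0.58 (adjusted p = 0.0666). Senescent B3 held 0 reads of KCNAB3 and the other senescent libraries 10 to 35. With 1 library left out, the change ranged from -1.69 to -0.72. The call was lost without non-senescent B2 (-1.25), non-senescent B4 (-1.30) or senescent A1 (-1.39). KCNAB2 was at 11 to 38.1 (median 26.3) and 5.72 to 17.4 (median 13.9), a change of -0.85 ± 0.30 (adjusted p = 0.0355).

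Of the 8 tested calcium- and sodium-activated channel genes, KCNN3, a small-conductance pore, was called higher. It was at 49.6 to 86.2 (median 54.1) and 59.3 to 163 (median 112), a change of 0.82 ± 0.18 (1.76-fold, adjusted p = 0.00199), and the groups did not overlap within either batch. KCNMA1, the large-conductance BK pore that ends the action potential, was at 123 to 245 (median 198) and 211 to 280 (median 242), a change of 0.43 ± 0.11 (adjusted p = 0.00696) under the fold limit. Its partner KCNMB1, a calcium-sensitivity subunit, was at 118 to 580 (median 474) and 129 to 640 (median 506), and did not pass the test.

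The largest rise of any channel gene was that of the inward rectifier KCNJ16 (chromosome 17, 70053429 to 70135608), a pH-sensitive subunit that pairs with others to form a channel. It was at 9.64 to 27.8 (median 15.5) in non-senescent and 206 to 264 (median 237) in senescent samples. The lowest senescent value was far above the highest non-senescent one, and the change was 3.79 ± 0.20 (13.8-fold, adjusted p = 1.56e-10) and stood at 3.26 within batch A against 4.05 within batch B. KCNJ2, a neighbour on chromosome 17, was at 83.3 to 219 (median 119) and 84.7 to 170 (median 120) and was not called. With KCNJ11 left out of the sum, KCNJ16 supplied 0.942% ± 0.280 of inward rectifier reads in non-senescent and 10.3% ± 1.00 in senescent samples (SD, n = 6).

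KCNJ3, KCNJ6 and KCNJ15 had the highest mean levels in both groups among the inward rectifiers described here, which leave out KCNJ11. KCNJ3 and KCNJ6 encode G-protein-gated subunits that slow firing after hormone signals. KCNJ3 was at 418 to 1242 (median 467) and 579 to 1220 (median 701), a change of 0.39 ± 0.09 (adjusted p = 0.00297) under the fold limit. KCNJ15 was at 297 to 453 (median 346) and 312 to 467 (median 398), with a difference of 0.12 ± 0.11. KCNJ8, the pore of vascular ATP-sensitive channels, was called lower at 0 to 43 reads per library (-1.40 ± 0.50, adjusted p = 0.0342), with overlapping groups.

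Two-pore-domain channels carry background potassium current, and 1 of 7 tested was called, lower, against 11.8% of all genes tested. KCNK17 was at 563 to 1340 (median 623) and 240 to 1208 (median 284), a change of -0.85 ± 0.14 (adjusted p = 0.000119). KCNK16, adjacent to it on chromosome 6 and like it activated at alkaline pH, was at 502 to 637 (median 531) and 393 to 1006 (median 450), with no pooled difference called (-0.03 ± 0.12). KCNK3, an acid-sensitive pore, was at 13.5 to 114 and 7.85 to 136 and was not called.

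**Figure D3:**
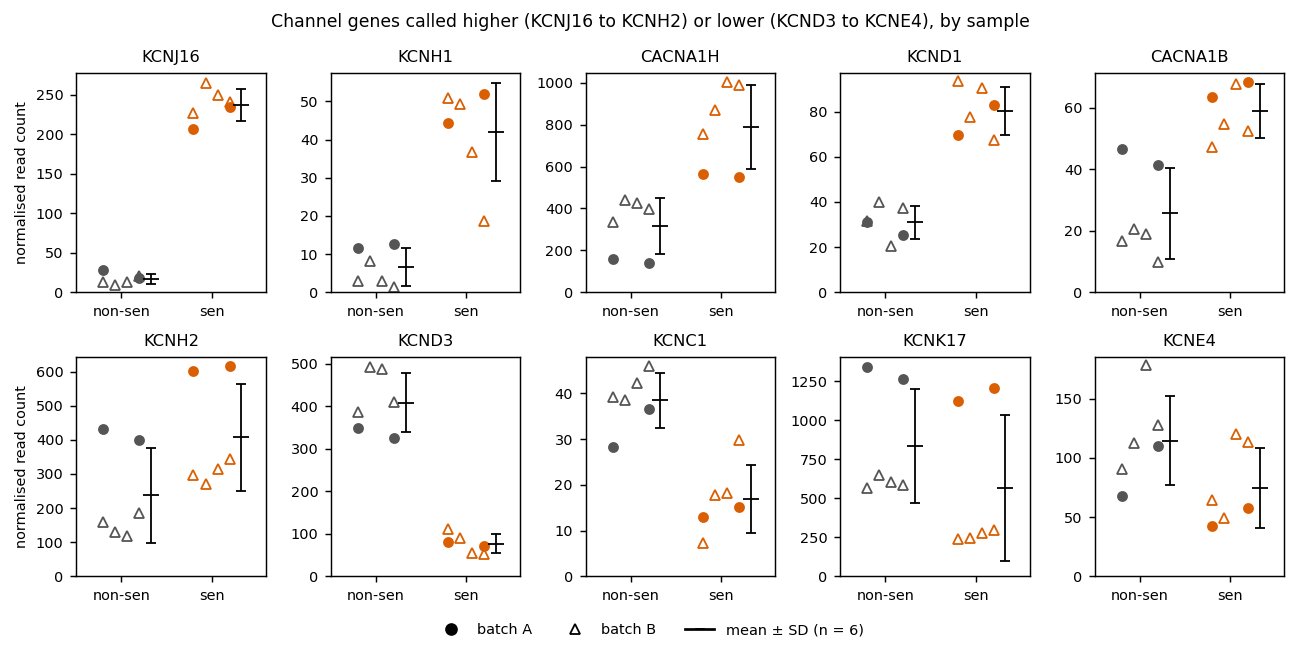
Normalised read count (y axis, from 0) of 10 called channel genes in each non-senescent and senescent sample; filled circles are batch A, open triangles batch B, and bars the mean ± SD of 6 samples. KCNJ16 and KCND3 separate the groups completely, whereas KCNH2 and KCNK17 separate them only within each batch.

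The response differed between the batches in 7 of the 73 tested genes (9.59%), by the interaction of batch and group in limma at an adjusted p under 0.1, against a background of 4.21% of all genes tested. The count was 4 without senescent replicate A1, and 5 without non-senescent A1, non-senescent A2 or senescent A2. KCNJ6 had the clearest difference. It fell in batch A from 442 to 451 to 270 to 289, and rose in batch B from 380 to 438 to 640 to 708, with a difference of responses (B minus A) of 1.36 ± 0.14 (adjusted p = 9.59e-05). CACNA2D1 was at 4019 to 4249 and 3509 to 3994 in batch A and rose from 1059 to 1292 to 2012 to 2150 in batch B, a difference of 0.97 ± 0.12 (adjusted p = 0.000476).

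KCNK17 and KCNK16 both had a lower response in batch B. KCNK17 was at 1265 to 1340 and 1122 to 1208 in batch A, and fell from 563 to 646 to 240 to 294 in batch B (difference -1.03 ± 0.15, adjusted p = 0.00163). KCNK16 rose in batch A from 622 to 637 to 802 to 1006 and fell in batch B from 502 to 539 to 393 to 486 (difference -0.82 ± 0.16, adjusted p = 0.0127). CACNA1A fell more in batch A (-1.03) than in batch B (-0.25), with a difference of 0.78 ± 0.13 (adjusted p = 0.00347). CACNA1H rose more in batch A (1.91) than in batch B (1.17), a difference of -0.74 ± 0.19 (adjusted p = 0.0584). CACNA1C was at 354 to 393 and 277 to 282 in batch A and rose from 104 to 128 to 135 to 219 in batch B, a difference of 0.98 ± 0.25 (adjusted p = 0.0522). In 4 genes (5.48%), KCNJ6, CACNA2D1, CACNA1C and KCNK16, the groups were apart in both batches but in opposite directions, against a background of 1.85% of all genes tested. Depth also differed between the batches, and its part was not tested.

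**Figure D4:**
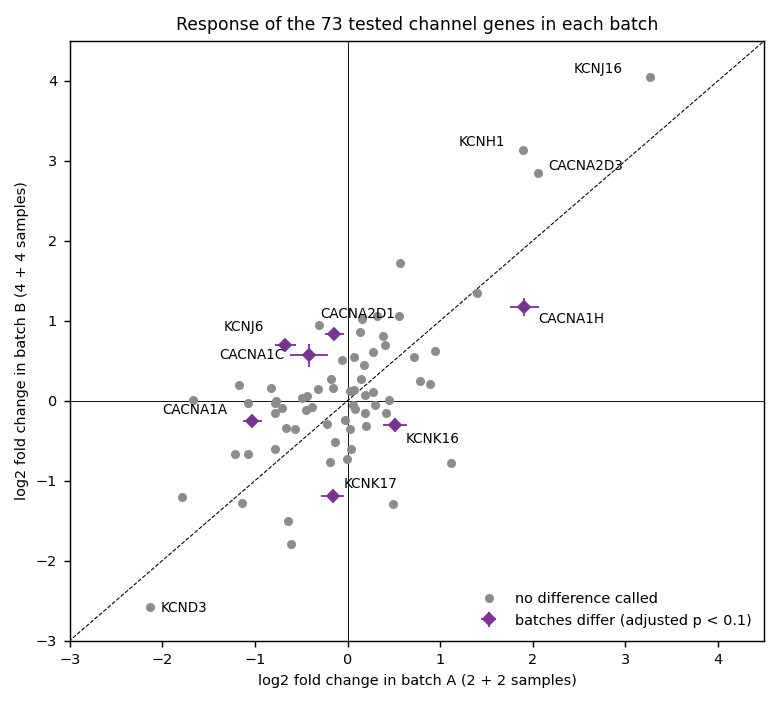
Log2 fold change (senescent over non-senescent) of the 73 tested channel genes in batch A (x axis, 2 samples of each group) and batch B (y axis, 4 of each). Purple diamonds, with ± SE, are the 7 genes whose response differed between batches; the dashed line marks equal responses, and KCNJ16, KCNH1, CACNA2D3 and KCND3 lie far from 0 on both axes.

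Genes below the filter were described by reads. No library held more than 15 reads of any of the 48, and 22 of them had at most 3 reads in every library, the limit that a count of 0 allows. When the filter was dropped, 1645 of all 22707 genes tested were called higher and 1741 lower. Among the 48 genes, 5 were called: KCNQ1 (7 reads in all non-senescent and 46 in all senescent libraries), KCNG2 (8 and 41), KCNJ4 (1 and 20) and KCNT1 (0 and 7) higher, and KCNE5 (13 and 3) lower. The fold change of such genes depends on the pseudocount and none is given. Of the beta-cell panel, KCNA2 had 8 and 6 reads in all, KCNK2 17 and 11, and KCNIP1 0 and 4. The genes with no read were CACNA1S, CACNG3, CACNG6, KCNA10, KCNA5, KCNA6, KCNIP3, KCNJ18, KCNJ9, KCNK18, KCNN4, KCNV2 and SCN10A. KCNJ18 is nearly identical to KCNJ12, so reads of that pair cannot be assigned with certainty, but KCNJ12 held only 1 read, in senescent B4. By library that limit was 0.175 to 0.642 ppm of reads, for counting error only.

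Of 93 genes that work with these channels, 72 were tested, 15 were called higher (20.8%, background 11.6%) and 8 lower (11.1%, background 11.8%), with a median log2 fold change of 0.09. FXYD2, a regulator of the sodium pump, rose most, from 240 to 680 (median 472) to 2169 to 3534 (median 2855), a change of 2.70 ± 0.15 (adjusted p = 3.68e-10) with no overlap. ORAI3, a pore for store-operated calcium entry, rose from 35.1 to 46.7 to 110 to 198 (2.07 ± 0.15), again with no overlap. The cation channel TRPM3 rose by 1.82 ± 0.26, and the pacemaker channel HCN2 by 1.58 ± 0.34.

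ITPR3, an inositol trisphosphate receptor that releases stored calcium, fell most, from 157 to 519 (median 215) to 27.5 to 110 (median 58.1), a change of -2.16 ± 0.17 (adjusted p = 3.03e-08). The volume-regulated anion channel subunit LRRC8C (-1.47 ± 0.34), the calcium-binding protein CABP1 (-1.28 ± 0.40), the sodium-calcium exchanger SLC8A1 (-1.28 ± 0.38) and the pacemaker channel HCN3 (-0.76 ± 0.18) followed. The Kv4 partners DPP6 and DPP10 were not called. ABCC8, the sulfonylurea receptor of ATP-sensitive channels, was at 990 to 1312 (median 1147) and 1179 to 1919 (median 1587), a change of 0.41 ± 0.08 (adjusted p = 0.000862) under the fold limit. REST, a repressor of neuronal channel genes, was at 0 to 10.2 and 3.14 to 12.1 and was not called.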

How the data were processed

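Poly(A) RNA of 12 EndoC-βH3 samples was profiled by CEL-seq2. By the study's methods and the submitters' processing notes, Cutadapt was used for trimming, Salmon 0.13.1 for quantification on GRCh38, and DESeq2, with batch correction, for normalisation and testing. The annotation and any use of molecular identifiers are not given in the sources used here, and limits set by a count of 0 cover counting error only. In the deposited table the authors give a signal, in which each sample's reads were divided by its own size factor. All non-zero values (100%) came out as whole reads within 0.001 read. The deposited columns of the authors' own comparison (mean, log2 fold change, its error, a test score, p-value and adjusted p-value) were not used. Because Salmon shares reads out between similar transcripts, paralogs and overlapping genes have uncertain values.

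The labels gave the groups and replicate names, and the letter in those names was taken as the batch. Genes with a mean of at least 5 were tested on log2(value + 1) with limma 3.58.1 (R 4.3.3, trend) with batch and group as terms. Fold changes are on that scale, which understates most changes of low genes, although a single value of 0 can enlarge them. The batch-by-group interaction tested the difference between batches, and its model gave the values within a batch. Benjamini-Hochberg adjustment ran over all 13847 genes; calls needed an adjusted p under 0.1 and a fold over 1.5. On recovered reads, edgeR 4.0.16 and DESeq2 1.42.0 were alternatives. On simulated data with 200 of 13847 genes changed, 83.5% of these were called and 97.1% of calls were changed genes. In the measured data 1605 genes were called higher and 1632 lower, and the 2 shares were not tested at such numbers. Whether they hold for genes with a fold near 1.5 was not tested.

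Members and lists were chosen with earlier results of these data known. Named genes were a panel of 37 beta-cell channel genes, the 6 largest rises and falls among called genes with a mean of at least 20 (5 fell), the 5 highest genes, and those that differed between batches. CACNA2D3, CACNG4, KCNAB2, KCNC4, KCNJ8, KCNV1, SCN1A and a few uncalled genes (KCNG1, KCNMB1, KCNJ2, CACNG8), the genes without filter, and the partners ABCC8, DPP6, DPP10 and REST were named after their values were seen. A few genes covered by this rule are counted but not reported here. Positions are from the GENCODE annotation of GRCh38. No libraries were duplicates: chi-square per degree of freedom within a group and batch was at least 4.28. Other pseudocounts, filters, scalings, batch treatments and left-out libraries were tried.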

Additional observations from a re-analysis of the deposited data

Results flagged for a closer look

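Within groups of 6 samples, 6 of the 108 gene-and-group combinations examined had 1 sample far from the others by Dixon's criterion at its 5% level. Each group pooled both batches, whose levels often differed, so 5% is not the chance rate for these groups. Among channel genes, KCNN3 in non-senescent replicate B3 was at 86.2 (next value 61.7), and SCN1A in senescent replicate A2 was at 7.85 (next 3.43). Among partner genes, TRPM3 in non-senescent replicate B4 was at 242 (next 102), LRRC8C in non-senescent replicate B4 was at 50.9 (next 27.8) and in senescent replicate B1 at 18.2 (next 8.98), and SLC8A1 in non-senescent replicate B1 was at 54.2 (next 24.6).

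In 7 channel genes the senescence response differed between batches by the interaction in limma. Response in batch B minus that in batch A (log2) was 1.36 for KCNJ6, 0.98 for CACNA1C, 0.97 for CACNA2D1, 0.78 for CACNA1A, -0.74 for CACNA1H, -0.82 for KCNK16 and -1.03 for KCNK17. Batches also differed in depth, and the part of that in these differences was not tested.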

How the results depend on the processing

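An adjusted p under 0.05 with a fold over 2 left 6 channel genes higher and 3 lower, and the count over all genes at that limit was not computed. A mean of at least 20 left 5 of 57 lower, no batch term 3 of 73, and batch A alone gave 16 of 72. Over all genes, these settings called 1346 of 11682, 1106 of 13847 and 1606 of 13503 lower. Partner genes called lower were 5 with a mean of at least 20 and 5 with no batch term. Without each library in turn, channel genes called higher numbered 9 to 14, those called lower 7 to 11, and those that differed between batches 4 to 9. Over all genes, the left-out fits called 1543 to 1643 higher and 1563 to 1642 lower. Of the 22 called genes, 8 were called under every alternative and left-out library in which they were tested, and 15 without each library in turn. edgeR, DESeq2 and the fit with a replicate block each called 12 higher and 9 lower, losing SCN3A (0.67 with the replicate block) and sharing the other 21. Same-numbered samples did not deviate together (correlations -0.0508 to 0.0164), so numbers were not taken as pairs.

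Among the named genes, signs turned only for those that were not called. In batch A alone the log2 fold change was -0.41 for CACNA1C, 0.19 for CACNA1D, -0.14 for CACNA2D1, -0.15 for KCNB2, 0.51 for KCNK16, -0.67 for KCNJ6 and -0.18 for KCNJ15. KCNB2 was at -0.050 with the same total. With a library left out, CACNA1D ranged from -0.11 to 0.0061 and KCNK16 from -0.14 to 0.018. The causes were not tested. Means under 20 normalised reads limit the calls for SCN1A, CACNA2D3, KCNJ8, KCNV1 and KCNAB2.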
